A study of Mus musculus with 48 samples.

Results

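The 10 immediate early genes Fos, Fosb, Jun, Junb, Egr1, Egr3, Nr4a1, Nr4a2, Arc and Ier2 were followed through sorted enteroendocrine cells of the mouse gut. They were chosen by name among the 53465 genes of the count table, and all 10 were among the 15126 genes with enough counts to be tested. The cells came from 17 Neurod1-cre-eYFP mice, in which cells that have expressed the transcription factor Neurod1 carry a yellow fluorescent protein. Neurod1 is switched on during enteroendocrine differentiation, so the marker labels this lineage and not a single hormone class.

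Each mouse had 1 of 3 procedures. VSG mice underwent vertical sleeve gastrectomy, which removed about 70% of the stomach and closed the remainder with sutures. S_al mice had a sham operation and fed ad libitum, and S_wm mice had the same sham operation but were kept at the weight of the VSG mice. Their weight was held by controlled daily feeding. VSG mice also received weekly injections of cyanocobalamin, a vitamin. All animals were lean males on a C57BL6 background that ate standard chow apart from a liquid diet around the operation. Some weeks later every mouse was fasted overnight and given glucose by gavage shortly before the gut was taken. No library came from a mouse without gavage, so the level before glucose, the response to glucose and the effect of cell isolation cannot be told apart. The epithelium was taken from the duodenum (top 5 cm of small intestine), the ileum (bottom 15 cm) and the colon with rectum, and was digested to single cells at body temperature. Fluorescent cells negative for the leukocyte antigen CD45 were then sorted. Colon segments were incubated with more EDTA than small intestine, so region and isolation procedure cannot be told apart either.

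There were 48 libraries, 16 per region, with 5 S_al, 5 S_wm and 6 VSG mice in each region. Of the 17 mice, 15 gave all 3 regions. Total gene counts ranged from 4648651 to 17182463 per library with a median of 6713018. The enteroendocrine granule genes Chga and Chgb were abundant in all libraries: their lowest levels were 3889 and 6834 CPM (counts scaled to library size), both in 1 duodenum library described next, and Neurod1 lay between 141.8 and 955.7 CPM. The duodenum library of S_wm mouse 27 stood apart. Its 10 enteroendocrine markers summed to 11660 CPM against 36960 to 73340 in the other 15 duodenum libraries, its 8 enterocyte markers to 39020 against 4641 to 12780, and its immune markers to 2374 against 24.7 to 747. For mouse 12 the ileum and colon codes of its sample descriptions are crossed relative to its tissue labels, and the tissue labels were used. With these labels, enterocyte markers summed to 3537 to 12390 CPM over all ileum libraries and to 235.9 to 610.3 over all colon libraries, without overlap.

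Immediate early genes are transcribed within minutes of a stimulus, from factors that are already present in the cell. Calcium, cyclic AMP and growth factor signals act on their promoters through CREB and through serum response factor with its partners, and their mRNAs are short lived. In excitable endocrine cells, depolarisation and hormone secretion go with their induction, but enzymatic dissociation, heat and stress also induce them.

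The members fall into 4 groups. Fos, Fosb, Jun and Junb encode leucine zipper proteins that pair to form the AP-1 transcription factor. Fos lies on chromosome 12 at 85473890 to 85477273 of GRCm38, Fosb on chromosome 7 at 19302696 to 19310051, Jun on chromosome 4 at 95049034 to 95052222 and Junb on chromosome 8 at 84974484 to 84978718. Exons of Jun overlap those of Junos on the opposite strand, and exons of Junb overlap those of Prdx2. Whether reads were counted by strand is not given in the sources used here, so reads of these neighbours may be shared. Egr1 (chromosome 18, 34859823 to 34864984) and Egr3 (chromosome 14, 70077203 to 70082614) encode zinc finger transcription factors. Nr4a1 (chromosome 15, 101254269 to 101274795) and Nr4a2 (chromosome 2, 57106830 to 57124003) encode orphan nuclear receptors that act without a known endogenous hormone. Arc (chromosome 15, 74669083 to 74672570) encodes a cytoskeleton-associated protein best known at synapses, and Ier2 (chromosome 8, 84661331 to 84662852) a nuclear protein of less defined function.

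Promoter sequences of 6 members were found in RefSeq (GRCm38.p6). The 150 bases before each start site are shown because the cyclic AMP response element is a well known control sequence of Fos.

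Capitals mark TGACG or its reverse complement CGTCA, the core to which CREB and its relatives bind. The windows lie at chr12:85473740-85473889 (+) for Fos, chr7:19310046-19310195 (-) for Fosb, chr4:95052223-95052372 (-) for Jun, chr8:84978749-84978898 (-) for Junb, chr15:101266696-101266845 (+) for Nr4a1 and chr2:57124004-57124153 (-) for Nr4a2.
Fos: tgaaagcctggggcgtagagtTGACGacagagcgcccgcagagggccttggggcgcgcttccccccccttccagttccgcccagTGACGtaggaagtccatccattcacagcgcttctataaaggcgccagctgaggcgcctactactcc
Fosb: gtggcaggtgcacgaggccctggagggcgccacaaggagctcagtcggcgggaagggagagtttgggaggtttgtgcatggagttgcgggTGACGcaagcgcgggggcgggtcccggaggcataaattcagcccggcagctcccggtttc
Jun: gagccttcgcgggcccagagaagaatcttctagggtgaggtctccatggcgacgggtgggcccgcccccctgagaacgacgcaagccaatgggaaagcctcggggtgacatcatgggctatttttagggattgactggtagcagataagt
Junb: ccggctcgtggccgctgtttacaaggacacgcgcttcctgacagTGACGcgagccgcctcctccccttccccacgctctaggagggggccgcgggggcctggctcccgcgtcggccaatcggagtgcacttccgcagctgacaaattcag
Nr4a1: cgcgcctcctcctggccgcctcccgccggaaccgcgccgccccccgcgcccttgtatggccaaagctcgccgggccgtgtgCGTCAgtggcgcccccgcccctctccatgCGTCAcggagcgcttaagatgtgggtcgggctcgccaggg
Nr4a2: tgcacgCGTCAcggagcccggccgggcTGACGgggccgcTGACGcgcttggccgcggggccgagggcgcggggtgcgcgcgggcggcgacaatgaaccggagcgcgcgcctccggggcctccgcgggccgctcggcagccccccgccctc

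The TGACG core, searched on both strands, stood in 5 of the 6 windows, all but that of Jun, and in 13.3% of the 32851 promoter windows of the same length in the genome. Fos held 2 cores, starting at -129 and -66 from the start site, Fosb 1 at -60, Junb 1 at -106, Nr4a1 2 at -69 and -40, and Nr4a2 3 at -144, -123 and -111. The full palindrome TGACGTCA stood in none of the 6 windows and in 1.36% of all windows. The AP-1 motif TGANTCA was also in none of the 6 (4.24% of all), as were GCGTGGGCG, bound by EGR proteins (0.426%), and the CArG box of serum response factor (0.916%). TATAAA was found in Fos alone (7.57% of all). The shares of all windows were not matched for base content, and the 6 windows ranged from 58.0% (Jun) to 83.3% (Nr4a2) G or C. These matches describe letters in short windows and were not tested as binding sites. Whether they go with the shared variation of the members was not tested.

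The levels of the members ranged widely between genes, from among the highest of all tested genes to well below the middle. Scaled to exon length, Jun was highest in each region, at 119 ± 49.6 CPM per kb in duodenum, 100.3 ± 59.1 in ileum and 92.5 ± 34.8 in colon (SD, n = 16). Fos followed in each region (98.3 ± 52.2, 81.3 ± 66.7 and 85.4 ± 50.9 CPM per kb). The mean of Jun stood at the 98.8 percentile of all tested genes in duodenum, and that of Fos at the 98.5 percentile. Junb, Ier2 and Egr1 came next, between 31.9 and 64.1 CPM per kb. In each region the gap between neighbours from Jun down to the fifth gene was smaller than at least 1 of their SDs, so their order is not resolved.

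Fosb lay lower, at 14.2 ± 9.20, 11.4 ± 12.4 and 11.7 ± 6.34 CPM per kb, and the gap to the gene above it exceeded both SDs in duodenum and colon but not in ileum. Nr4a2, Nr4a1 and Arc ranged from 1.59 to 11.6 CPM per kb. Egr3 was the lowest member throughout, at 0.684 ± 0.594, 0.936 ± 1.45 and 0.574 ± 0.415 CPM per kb. It had no count in the ileum library of S_al mouse 24 and the colon library of S_wm mouse 27, which allows up to 0.528 and 0.491 CPM. These limits cover counting error only. The plot of levels by library shows how far the 3 surgery groups overlap in each region.

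**Figure D1:**
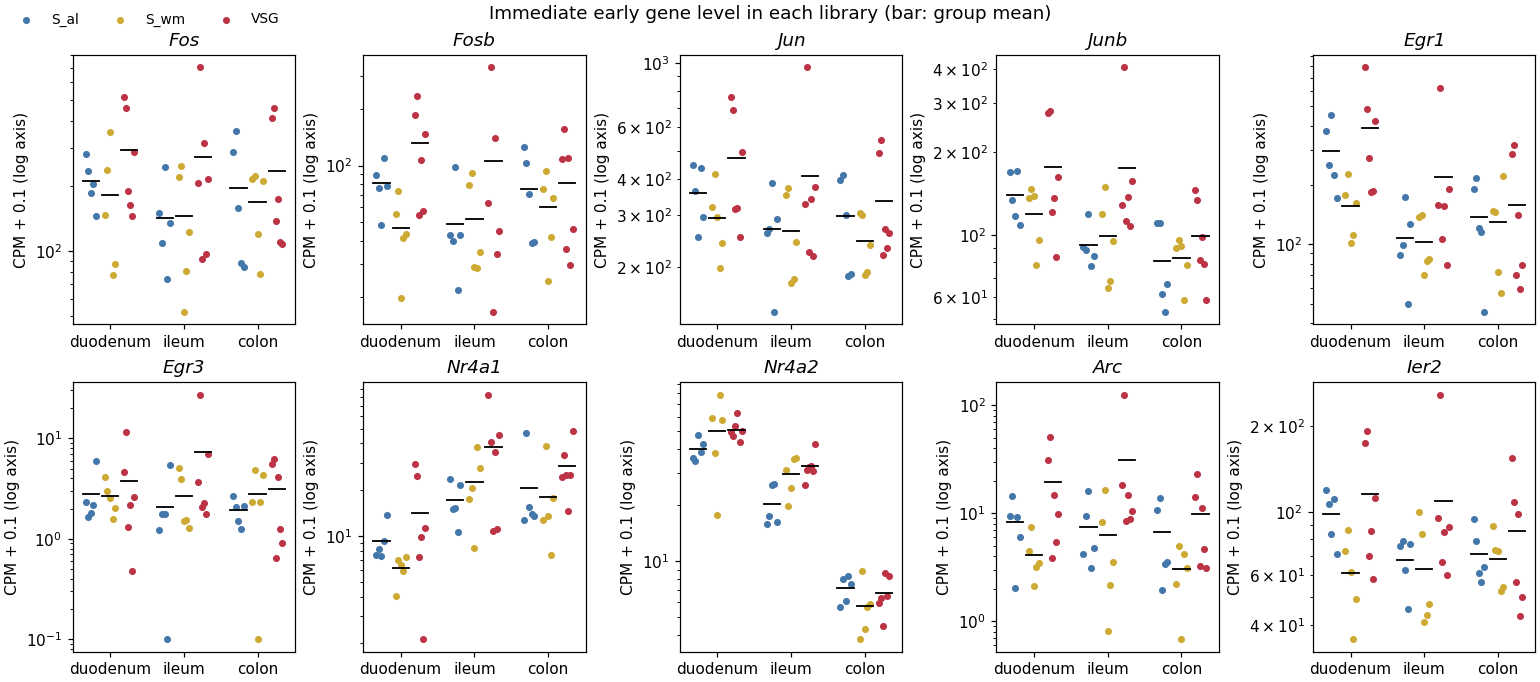
Level of each of the 10 immediate early genes in each of the 48 libraries, as CPM on a log axis after adding 0.1, by region, with points coloured by surgery group and a bar at each group mean. Jun is the highest gene in all 16 libraries of ileum and of colon and in 13 of duodenum, where Egr1 lies above Fos in 14, and Egr3 is the lowest in 14 or 15 libraries of each region, and Nr4a2 steps down from duodenum to ileum to colon.

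The region contrasts asked how the members differed along the gut, with the 3 surgery groups given equal weight. Nr4a2 fell along the gut, Nr4a1 was higher in ileum and colon than in duodenum, and Egr1 was highest in duodenum. Junb was lowest in colon. Fos, Fosb, Jun, Egr3, Arc and Ier2 passed the threshold in none of the 3 contrasts. The test was edgeR's quasi-likelihood test over all 15126 genes with Benjamini-Hochberg adjustment, and a call means an adjusted p under 0.05. With the library index as a covariate, only the calls of Nr4a2 in both colon contrasts held. In bulk libraries of sorted cells, fewer cells of a type and less RNA per cell cannot be told apart.

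Nr4a2 differed most. Its 16 duodenum libraries ranged from 17.6 CPM through a median of 47.4 to 78.7, the ileum libraries from 15.8 through 28.2 to 42.4, and the colon libraries from 3.69 through 6.14 to 8.78. Every colon library was below every library of the other regions, while duodenum and ileum overlapped. The log2 fold change was -2.87 (SE 0.142, adjusted p = 6.11e-23) for colon against duodenum, -2.06 (SE 0.141, adjusted p = 1.66e-17) for colon against ileum and -0.81 (SE 0.128, adjusted p = 1.66e-06) for ileum against duodenum. Within ileum the S_al mice had the lowest mean of Nr4a2 (20.2 ± 5.10 CPM, n = 5), followed by S_wm (29.3 ± 6.98, n = 5) and VSG (32.3 ± 5.55, n = 6).

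Nr4a1, from the same receptor family, ran the other way. It ranged from 2.02 through a median of 7.34 to 29.4 CPM in duodenum, from 8.23 through 20.9 to 83.1 in ileum and from 7.45 through 16.5 to 47.9 in colon. All 3 ranges overlapped. The log2 fold change was 1.40 (SE 0.291, adjusted p = 0.000185) for ileum and 1.25 (SE 0.290, adjusted p = 0.00031) for colon, each against duodenum. With the library index as a covariate neither call held. Colon and ileum differed by -0.15 (95% interval -0.70 to 0.40).

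Egr1 ranged from 101.5 through 226 to 790.0 CPM in duodenum, from 49.9 through 117 to 621 in ileum and from 45.3 through 131 to 318 in colon. It was lower in ileum (log2 fold change -0.97, SE 0.284, adjusted p = 0.00721) and in colon (-0.89, SE 0.284, adjusted p = 0.00739) than in duodenum, although the ranges overlapped widely. With the library index as a covariate these values became -0.30 (adjusted p = 0.804) and 0.09 (adjusted p = 0.939), so neither call held and the colon value changed sign. Egr3, its relative, differed by less than its spread in all 3 contrasts (adjusted p from 0.465 to 0.811).

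Junb ranged from 78.1 through 136 to 282 CPM in duodenum, from 64.7 through 110.3 to 405 in ileum and from 52.8 through 85.6 to 146 in colon. It was lower in colon than in duodenum (log2 fold change -0.72, SE 0.177, adjusted p = 0.000623). The difference between colon and ileum was close to the threshold (-0.42, SE 0.177, adjusted p = 0.0450). That call was lost when any 1 of 9 mice was left out (adjusted p from 0.0206 to 0.117 over 17 mice), and without the duodenum library of mouse 27 (adjusted p = 0.0638).

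Counted over the members, 3 of 10 passed in ileum against duodenum, where 33.8% of all tested genes did. In colon against duodenum 4 of 10 passed, against 55.0% of all genes, and in colon against ileum 2 of 10, against 49.2%. The share of members called was thus near or below that of all genes. Median log2 fold changes of the members were -0.27, -0.29 and -0.12 in these contrasts, and those of all genes 0.0045, -0.01 and -0.01.

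Since libraries of 1 mouse share an animal, the contrasts were also fitted with the mouse as a block. In edgeR with a fixed block 5 members passed in ileum against duodenum, 6 in colon against duodenum and 3 in colon against ileum. Fosb (log2 fold change -0.46, adjusted p = 0.0403) and Jun (-0.27, adjusted p = 0.0316) joined in the first, Jun (-0.32, adjusted p = 0.00656) and Arc (-0.58, adjusted p = 0.0421) in the second, and Arc (-0.75, adjusted p = 0.0104) in the third. In limma voom with a random block the members called were those of the fit without a block (3, 4 and 2), and Arc had an adjusted p of 0.285 and 0.286 in the colon contrasts. The library index printed in the sample names followed the region: 1 index was used only in duodenum (12 libraries), and 11 of the 12 libraries of another came from colon. With the index as a covariate, 0, 1 and 1 members passed, and the member left was Nr4a2 in both colon contrasts.

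**Figure D2:**
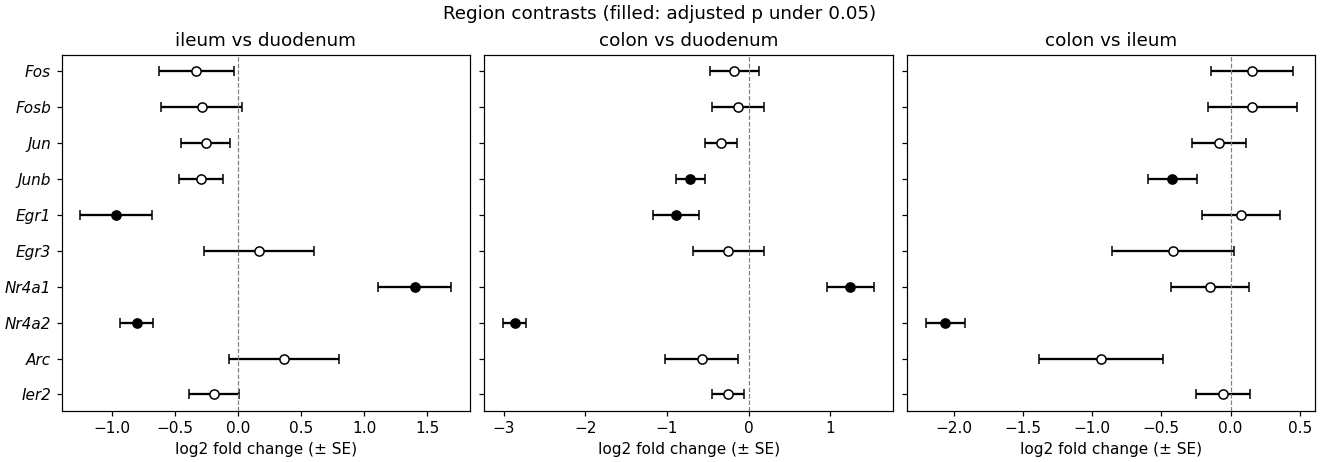
Log2 fold change with its SE (x axis) of the 10 members in the 3 region contrasts, with filled points for an adjusted p under 0.05. Nr4a2 lies at -2.87 and -2.06 in the colon contrasts, Nr4a1 lies above 1 in both contrasts against duodenum, and the AP-1 genes, Arc, Egr3 and Ier2 lie nearer to 0.

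Other immediate early genes also differed by region in both directions. Of 36 listed, 32 could be tested (Jund, Egr4, Ctgf and Npas4 could not). In colon against duodenum 8 were higher and 15 lower, in colon against ileum 9 higher and 10 lower, and in ileum against duodenum 6 higher and 9 lower. That makes 23, 19 and 15 of the 32 called, where 55.0%, 49.2% and 33.8% of all tested genes were. Egr2, a close relative of Egr1, fell from 16.5 ± 7.17 CPM in duodenum through 8.40 ± 4.53 in ileum to 1.37 ± 1.19 in colon (SD, n = 16). Its log2 fold change was -3.54 for colon against duodenum (SE 0.312, adjusted p = 1.42e-13). Dusp5, a dual-specificity phosphatase, was lower in colon as well (-2.37, SE 0.141, adjusted p = 6.14e-20), and so was Nfkbiz, a nuclear regulator of NF-kB targets (-1.14, SE 0.137, adjusted p = 9.78e-10). Plk2, a kinase, rose from 4.04 ± 2.00 CPM in duodenum to 17.7 ± 5.42 in colon (log2 fold change 2.14, SE 0.189, adjusted p = 7.24e-14). The transcription factor Klf4 rose from 102.3 ± 63.6 to 259.8 ± 84.8 CPM (1.34, SE 0.189, adjusted p = 5.74e-08). Fosl1, a partner of the Jun proteins, was also higher in colon but stayed near 1 CPM (2.29, SE 0.552, adjusted p = 0.000413).

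In ileum against duodenum, Fosl2 (log2 fold change 0.56), Ier5 (0.62) and Myc (0.71) led the rises, with adjusted p of 8.46e-05, 0.000457 and 0.00104. Rhob (-0.59), Gadd45b (-0.70) and Btg2 (-0.54) led the falls, with adjusted p of 0.000189, 0.00108 and 0.00138. In colon against ileum, Plk2 (1.65), Rhob (0.57) and Klf2 (1.41) were the leading rises and Dusp5 (-2.08), Nfkbiz (-1.42) and Egr2 (-2.52) the leading falls, with adjusted p of 0.000985 or below for each.

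Kinases and transcription factors upstream of the members differed in both directions too. Of 28 regulators, 9 were higher and 5 lower in colon than in duodenum, 8 higher and 3 lower in colon than in ileum, and 5 higher and 4 lower in ileum than in duodenum. That makes 14, 11 and 9 of the 28 called, where 55.0%, 49.2% and 33.8% of all tested genes were. Elk3, a ternary complex factor that sits with serum response factor, rose from 2.75 ± 0.995 CPM in duodenum to 7.06 ± 2.57 in ileum and 10.1 ± 5.33 in colon (log2 fold change 1.86 for colon against duodenum, SE 0.218, adjusted p = 3.18e-10). The kinase gene Map2k1 was higher in colon than in duodenum (0.54, SE 0.0784, adjusted p = 7.57e-08). Mef2a, a calcium-responsive factor, was lower in colon (-0.44, SE 0.0767, adjusted p = 2.88e-06). Camk4, a calcium-dependent CREB kinase, was low throughout and lowest in ileum (0.547 ± 0.442 CPM against 3.02 ± 1.71 in duodenum).

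Heat shock genes, which dissociation and warmth can induce, had calls in both directions, but nearly all were lower in ileum than in duodenum. Of 14, 3 were higher and 6 lower in colon than in duodenum, 4 higher and 4 lower in colon than in ileum, and 1 higher and 6 lower in ileum than in duodenum. That makes 9, 8 and 7 of the 14 called, where 55.0%, 49.2% and 33.8% of all tested genes were. Positive log2 fold changes were found for 4, 8 and 1 of the 14, with medians of -0.24, 0.02 and -0.27. Hsp90aa1 (log2 fold change -0.63, adjusted p = 6.75e-09) and the co-chaperone gene Dnaja1 (-0.97, adjusted p = 7.10e-09) were lower in colon than in duodenum. Hmox1, a haem oxygenase induced by oxidative stress, was higher there (2.25, adjusted p = 2.50e-05) but reached only 2.29 ± 1.09 CPM. Cell type markers moved with region as well: all 8 enterocyte markers were lower in colon than in duodenum, and 6 of 10 enteroendocrine markers were lower and 1 higher. In the same contrast 6 of 6 colonocyte markers were higher, 4 of 7 goblet markers higher and 1 lower, 5 of 6 Paneth markers lower, 3 of 4 tested tuft markers higher and 1 lower, 3 of 5 crypt and cycling markers lower and 6 of 7 tested immune markers lower. The single stromal marker tested was higher, and none of the 5 acinar markers had enough counts to be tested. Their part in the differences of the members was not tested.

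The surgery contrasts asked whether VSG went with other levels of these genes. Only the S_wm mice were kept at the weight of the VSG mice. Against S_al the operation and the weight lost with it cannot be told apart. Against S_wm the operation cannot be told apart from the controlled feeding of the S_wm mice. In both contrasts the vitamin injections of the VSG mice go with the operation. VSG was set against each sham group, and since both contrasts use the same VSG libraries they are not independent. Averaged over the regions, all 10 members had a positive log2 fold change for VSG in both contrasts, as did 50.5% of all genes against S_wm and 52.4% against S_al. Only Arc against S_wm passed the threshold, with 37 of 15126 genes (0.245%) passing in that contrast. Against S_al no member and no other gene passed by edgeR (0.0%), while 5.53% of genes had an unadjusted p under 0.05. DESeq2 called 16 genes in that contrast, with no member among them.

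Arc in VSG mice 11, 18, 22, 25, 28 and 30 had in duodenum a lowest value of 3.75 CPM, a median of 12.2 and a highest of 50.6. In ileum the VSG values ran from 8.37 through a median of 12.5 to 125, and in colon from 3.01 through 7.84 to 22.7. S_wm mice 16, 21, 27, 29 and 31 had 4.32, 7.29, 2.02, 3.10 and 3.38 CPM in duodenum. The same S_wm mice had 8.22, 16.2, 0.710, 2.08 and 3.40 CPM in ileum and 2.09, 4.89, 0.576, 4.10 and 3.03 in colon. Mouse 18 was the highest library in every region, and VSG and S_wm overlapped in every region. The 5 S_al mice ranged from 1.95 to 14.4 CPM in duodenum, from 2.99 to 15.8 in ileum and from 1.83 to 13.7 in colon.

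The log2 fold change of Arc for VSG against S_wm was 2.11 (SE 0.452, adjusted p = 0.0271), and for VSG against S_al 1.30 (SE 0.430, adjusted p = 0.614). This fit takes the 3 libraries of a mouse as separate samples. When limma voom treated the mouse as a random block, the value against S_wm was 2.01 (adjusted p = 0.488). With counts summed per mouse it was 2.32 (adjusted p = 0.677). Without mouse 18 it was 1.29 (adjusted p = 0.186), and the call was also lost without mouse 11, 16, 27, 29 or 31 (adjusted p from 0.068 to 0.0962). The direction thus remained, whereas the call did not survive treating the mouse as the unit.

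Below the adjusted threshold, 8 of 10 members had an unadjusted p under 0.05 in edgeR for VSG against S_wm, all higher, where 4.63% of all genes were higher at that level. They were Arc, Ier2 (log2 fold change 0.68, SE 0.196), Egr1 (0.90, SE 0.282), Junb (0.55, SE 0.175), Nr4a1 (0.88, SE 0.284), Jun (0.59, SE 0.192), Fosb (0.98, SE 0.321) and Fos (0.69, SE 0.297). For VSG against S_al, 8 of 10 were again higher at that level, against 3.04% of all genes: Arc, Junb (0.52, SE 0.175), Nr4a1 (0.75, SE 0.281), Egr3 (1.06, SE 0.433), Nr4a2 (0.31, SE 0.132), Ier2 (0.40, SE 0.194), Jun (0.39, SE 0.192) and Fosb (0.64, SE 0.318). Adjusted p of these members lay between 0.158 and 0.413 against S_wm, apart from Arc, and between 0.614 and 0.901 against S_al. Most of these members, other than Nr4a1 and Nr4a2, varied together between libraries of a region, so they do not count as 8 separate observations.

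Much of this rested on 1 animal. Without VSG mouse 18, 4 members remained at an unadjusted p under 0.05 against S_wm (Arc, Nr4a1, Egr1 and Ier2) and 2 against S_al (Nr4a1 and Nr4a2). The median log2 fold change of the members went from 0.72 to 0.37 against S_wm and from 0.55 to 0.23 against S_al, with medians of all genes of 0.0021 and 0.0084 in the full set. Egr3 turned to -0.05 against S_wm without mouse 18. In the limma voom fit that ties libraries of a mouse together, 7 and 2 members were at an unadjusted p under 0.05 against S_wm and S_al. With summed counts per mouse 7 and 1 were.

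**Figure D3:**
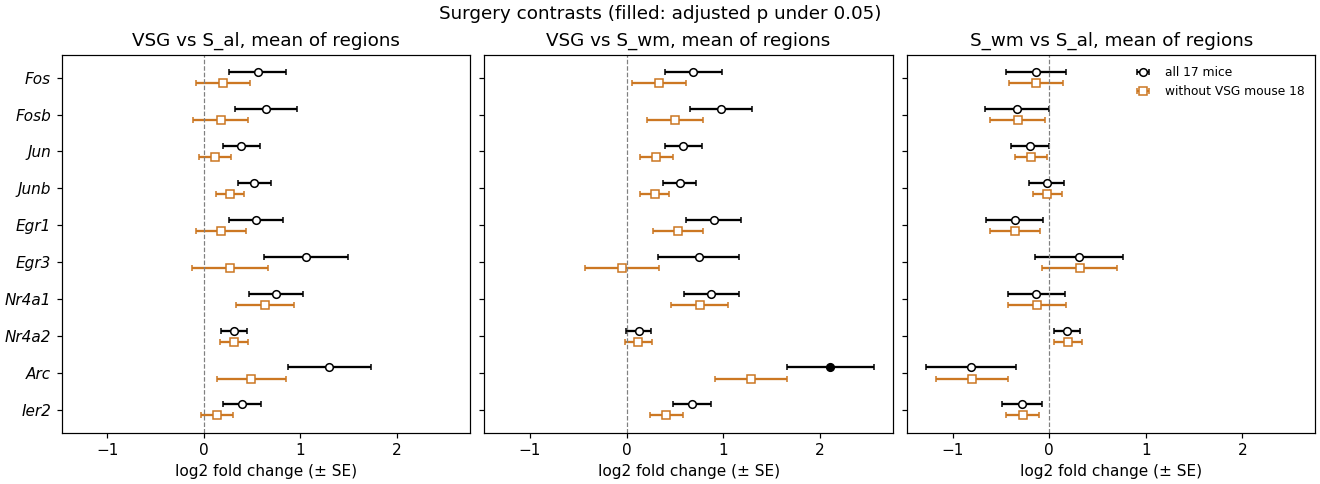
Log2 fold change with its SE of the 10 members in the 3 surgery contrasts averaged over regions, with all 17 mice and without VSG mouse 18. The 2 contrasts of VSG lie above 0 for all members with all mice. Without mouse 18 most values are lower, for Arc 1.29 in place of 2.11 against S_wm, while Nr4a2 against S_al stays near 0.31 and Egr3 against S_wm turns to -0.05.

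The sham groups were also compared with each other. No member passed and none had an unadjusted p under 0.05 in S_wm against S_al by edgeR, where 8 genes (0.0529%) passed and 6.39% had an unadjusted p under 0.05. Without the duodenum library of mouse 27, Nr4a2 reached that level (log2 fold change 0.26, SE 0.118), and also without mouse 27 altogether (0.30), while Arc reached it without mouse 18 (-0.80) or mouse 21 (-1.27). Arc had the lowest p (log2 fold change -0.81, SE 0.468, adjusted p = 0.824 by edgeR), and 2 of 10 members, Egr3 and Nr4a2, had positive values. The intervals were wide: for Fos the 95% interval ran from -0.74 to 0.47.

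Within single regions no member passed the adjusted threshold in any surgery contrast by edgeR, and few genes did. The share of all genes past it for VSG against S_wm was 0.225% in duodenum, 0.0463% in ileum and 0.0595% in colon, for S_wm against S_al 0.0132% in colon, and 0.0% in the remaining contrasts. At an unadjusted p under 0.05 the members were all higher in VSG. In duodenum 6 members reached it against S_wm (2.0% of all genes were higher at that level) and 0 against S_al (1.34%). In ileum 5 reached it against S_wm (3.79%) and 7 against S_al (3.2%), and in colon 1 against S_wm (1.95%) and 0 against S_al (3.0%). Without mouse 18 the ileum counts were 0 against S_wm and 2 against S_al, and the colon count was 0. With the mouse as a random effect they were 3, 4 and 0. Leaving out single mice gave 3 to 7 in duodenum and 0 to 9 in ileum against S_wm, and 2 to 10 in ileum against S_al, with the low ends without mouse 11 in duodenum and without mouse 18 in ileum.

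In duodenum the members at that level against S_wm were Arc (log2 fold change 2.23, SE 0.777), Fosb (1.49, SE 0.563), Egr1 (1.32, SE 0.494), Nr4a1 (1.22, SE 0.513), Ier2 (0.92, SE 0.340) and Jun (0.68, SE 0.334). In ileum they were Arc (2.37, SE 0.769), Egr3 (1.54, SE 0.738), Egr1 (1.09, SE 0.492), Junb (0.82, SE 0.304) and Ier2 (0.80, SE 0.340). Against S_al in ileum they were Arc (2.12, SE 0.764), Egr3 (1.95, SE 0.769), Nr4a1 (1.15, SE 0.489), Egr1 (1.03, SE 0.492), Junb (0.93, SE 0.306), Ier2 (0.69, SE 0.340) and Nr4a2 (0.68, SE 0.224). Without mouse 18 Arc and Egr3 in this contrast were at 0.72 and 0.75. In colon Arc alone reached the level against S_wm (1.74, SE 0.808). Against S_al the lowest p belonged to Arc in duodenum (1.23, SE 0.727) and Junb in colon (0.31, SE 0.303).

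Markers of other cell types moved in the duodenum contrast of VSG against S_wm. All 6 Paneth markers were lower at an unadjusted p under 0.05, 2 of them past the adjusted threshold, with a median log2 fold change of -2.35. Of 8 enterocyte markers 6 were lower at that level and 1 passed, and all 7 tested immune markers had negative values, 3 at that level. All 6 colonocyte and 6 of 7 goblet markers also had negative values, 4 and 2 at that level. No enteroendocrine, tuft, crypt and cycling or stromal marker reached it. Without the duodenum library of mouse 27, 3 Paneth, 1 enterocyte, 0 immune, 0 colonocyte and 0 goblet markers were at that level and none passed. The Paneth median was then -1.20, and 5 members remained at that level (Arc, Fosb, Egr1, Nr4a1 and Ier2). In ileum against S_al, 5 of 6 Paneth markers were lower at that level, and all 10 enteroendocrine markers had positive values, 1 at that level. The share of all genes lower at that level is not given for either contrast. The part of these markers in the differences of the members was not tested.

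Against each other the sham groups gave 1 such member, Nr4a2 in ileum (0.55), higher in S_wm (3.83% of genes were higher at that level). In duodenum and colon they gave none, against 6.55% and 3.66% of genes in either direction. The lowest p belonged to Ier2 in duodenum (-0.68, SE 0.351) and Arc in colon (-1.18, SE 0.837). Without the duodenum library of mouse 27, Nr4a2 in duodenum reached that level (0.54, SE 0.195). Leaving out single mice gave 0 to 2 such members in duodenum and 0 to 1 in ileum, where Nr4a2 did not reach it without mouse 12, 13, 29, 31 or 32.

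The regional pattern itself was not resolved. The joint test of whether the surgery differences depended on region found no member past the threshold, and none at an unadjusted p under 0.05. The lowest was Nr4a2 (adjusted p = 1.0 by edgeR). Over all genes 0 (0.0%) passed by edgeR, and 4.9% had an unadjusted p under 0.05. DESeq2 called 9 genes, with no member among them. Among the other 32 immediate early genes none passed in a surgery contrast averaged over regions. Of these, 14 had an unadjusted p under 0.05 for VSG against S_wm and 9 for VSG against S_al, all higher in VSG. No upstream regulator or heat shock gene passed either by edgeR. At an unadjusted p under 0.05 for VSG against S_wm there were 3 of 28 regulators, 2 of them higher in VSG. At that level 5 of 14 heat shock genes were found, all higher in VSG. For VSG against S_al there was 1 of each, also higher. Over all genes 1500 of 15126 reached that level against S_wm and 5.53% against S_al, in either direction. Within duodenum 4 of 14 heat shock genes reached it against S_wm, all higher. The part of heat shock genes in the differences of the members was not tested.

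Cell type markers also moved with surgery in places. Averaged over regions, 1 of 8 enterocyte markers was lower in VSG than in S_wm past the threshold. The 6 Paneth markers had a median log2 fold change of -1.21 for VSG against S_al, with 5 at an unadjusted p under 0.05, and of the 7 tested immune markers 3 reached that level, all lower. The 10 enteroendocrine markers had medians of 0.0094 and 0.03 for VSG against S_wm and S_al, and none reached it. No colonocyte, goblet, Paneth, tuft, crypt and cycling, immune or stromal marker passed the adjusted threshold in either VSG contrast averaged over regions by edgeR. Their part in the differences of the members was not tested.

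Some mice stood high or low for many members. For each mouse, the members were ranked among the 16 libraries of a region, giving 30 sets of gene and region. The ranks run across the surgery groups, so they mix group differences with the spread within groups. Most members varied together, so the sets are not separate observations. VSG mouse 18 was highest in 19 of its 30 sets and among the top 3 in 26. VSG mouse 11 was highest in 7 and among the top 3 in 19. At the other end, S_wm mouse 27 was lowest in 11 sets, and S_wm mouse 29 was lowest in 6 and among the bottom 3 in 20. The VSG group was not uniform, for mice 22 and 28 were never among the top 3. The heat map of deviations by mouse shows these rows.

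The ileum library of mouse 18 gave the highest values of the series for Fos (705.9 CPM), Fosb (333), Jun (965), Junb (405), Egr3 (27.05), Arc (125) and Ier2 (259). It also had the most counts in ileum (11478914 against 4823339 to 7628755 in the other 15), the highest sum of enteroendocrine markers (83430 against 34290 to 62300 CPM) and the lowest sum of immune markers (179 against 354 to 1591). Its mitochondrial share was the lowest (8.79% against 10.4% to 20.3%), and its heat shock sum ranked 9 of 16. The part of these library properties was not tested. The duodenum library of mouse 27 was mixed among the members: Fos stood high at 354 CPM, while Fosb (19.7), Egr1 (101.5) and Nr4a2 (17.6) were the lowest of that region.

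**Figure D4:**
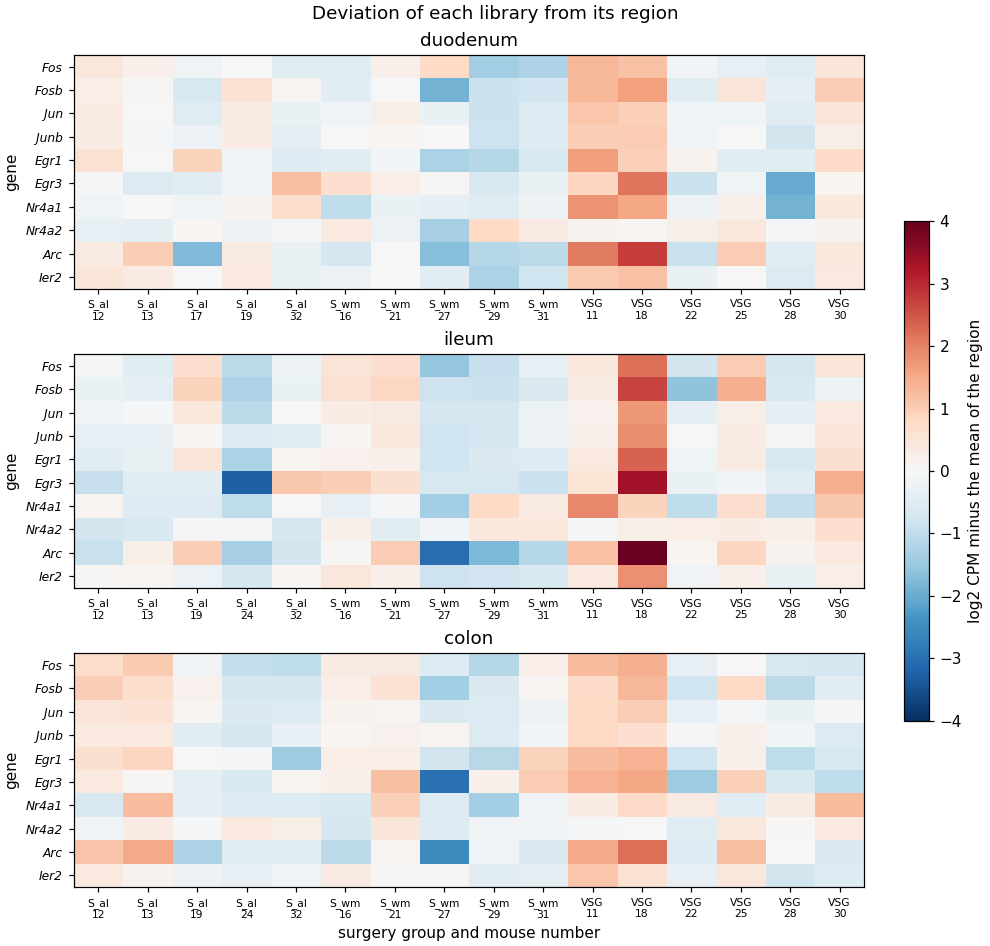
Heat map of log2 CPM minus the mean of the region for each member (rows) in each library (columns, by region and mouse). The libraries of VSG mouse 18 are high for most members in all 3 regions, and those of S_wm mouse 29 are low for most.

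Levels in the regions of 1 mouse were then correlated, after removing the mean of each group. Over the 10 members and 3 pairs of regions, 28 of 30 Pearson r were positive, with a median of 0.606. By a permutation test with 100000 resamples of mice within surgery groups, two-sided, 12 of 30 passed after Benjamini-Hochberg adjustment over the 30, all positive, and 14 passed by Spearman's rho. A mouse with a high level in the duodenum thus tended to have a high level in the colon.

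Arc between duodenum and ileum had r = 0.787 and rho = 0.843 over 15 mice (permutation p = 6e-05, adjusted p = 0.0018), and r = 0.682 without the 2 mice farthest from the median. Between duodenum and colon Arc had r = 0.761 and rho = 0.793 (permutation p = 0.0013, adjusted p = 0.0124), and r = 0.683 without 2 mice. Its r between ileum and colon, 0.542 over 16 mice, did not pass (adjusted permutation p = 0.0648).

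Fosb and Jun passed in all 3 pairs of regions. For Fosb r was 0.764, 0.786 and 0.752, with rho of 0.693, 0.732 and 0.753 and adjusted permutation p of 0.0251, 0.0147 and 0.0147. For Jun r was 0.675, 0.800 and 0.704, with rho of 0.618, 0.739 and 0.600 and adjusted permutation p of 0.0452, 0.0124 and 0.016. Without the 2 mice farthest from the median, these r stayed between 0.536 and 0.772. Ier2 passed in both pairs with the duodenum (r = 0.742 and 0.750), Egr3 between duodenum and ileum (r = 0.853) and Egr1 between duodenum and colon (r = 0.705).

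Nr4a1 and Nr4a2 passed in no pair of regions. For Nr4a1 r was 0.693 between duodenum and ileum (adjusted permutation p = 0.0561) but 0.0963 and -0.04 in the pairs with colon, and for Nr4a2 it was 0.468, 0.117 and -0.04. Over all members the median r was 0.684 between duodenum and ileum, 0.672 between duodenum and colon and 0.493 between ileum and colon. All 15126 genes had medians of 0.136, 0.166 and 0.139 in the same libraries. An r over 0.5 was found for 7, 7 and 5 members, and for 13%, 14.2% and 12.1% of all genes. Leaving out 1 mouse at a time left 7 to 16 of the 30 past the threshold, with the low end without VSG mouse 22. Without the 2 mice farthest from the median, the median r of the members was 0.664 between duodenum and ileum and 0.666 between duodenum and colon. Between ileum and colon it fell to 0.259, so that pair rested more on single mice.

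Within a region the members also moved with each other. Over the 45 pairs of members in each of 3 regions, with 16 libraries each, 79 correlations passed after adjustment over all pairs and regions, 78 of them positive, and 76 passed by rho. The median r was 0.677 in duodenum, 0.842 in ileum and 0.644 in colon. Jun and Ier2 in duodenum had r = 0.963 (rho = 0.935, permutation p = 2e-05, adjusted p = 0.000245), and Jun and Junb there r = 0.955 (rho = 0.944). Leaving out 1 mouse at a time left 56 to 84 past the threshold.

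Nr4a2 stood apart from the other members. It passed in 1 of its 27 correlations, with Fos in duodenum, and that one was negative (r = -0.70). Nr4a1 passed in 4 of 27, whereas each of the other 8 members passed in 17 to 22 of 27. The median r over the 27 was -0.09 for Nr4a2 and 0.404 for Nr4a1, against 0.674 to 0.812 for the other 8.

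**Figure D5:**
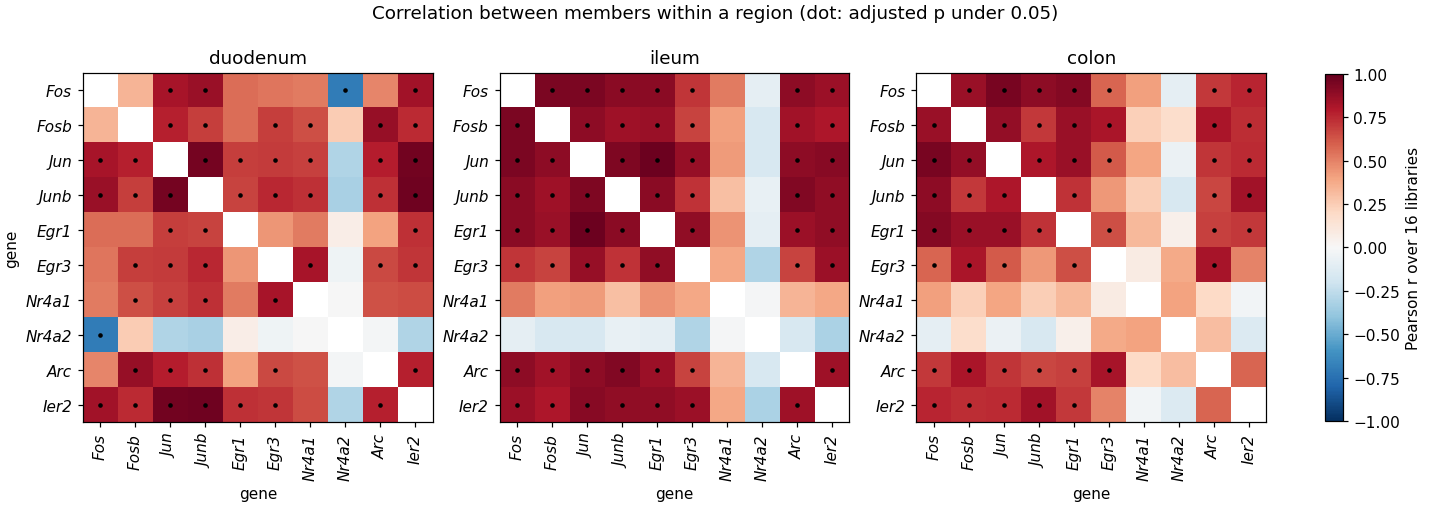
Pearson r between each pair of members within duodenum, ileum and colon (16 libraries each, group means removed), with dots where the adjusted permutation p is under 0.05. Most pairs among the AP-1 genes, Egr1, Egr3, Arc and Ier2 are strongly positive, and many pairs of Nr4a2 and Nr4a1 are paler. Exceptions include Nr4a1 with Egr3, at its highest r = 0.826, and Nr4a2 with Fos in duodenum, r = -0.70.

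Library properties moved with some members. Of 150 correlations of the members with 5 measures of each library in each region, 9 passed, 6 of them positive, by the same permutation test adjusted over the 150. In colon the summed level of 14 heat shock genes went with Fos (r = 0.874), Jun (0.795), Junb (0.793) and Egr1 (0.772). In duodenum the summed enteroendocrine markers went with Fosb (r = 0.699) and Egr1 (0.584). The negative ones were Fos with the immune marker sum (-0.75) and Jun with the mitochondrial share (-0.67), both in colon, and Nr4a2 with log10 total count in duodenum (-0.63). In ileum 0 of 50 passed. There 9 of 10 members had a positive r with the enteroendocrine sum (median 0.63, and 0.38 without the 2 libraries farthest from the median). With the immune sum 0 of 10 were positive in ileum (median -0.52, and -0.26 without 2 libraries). The count of 9 past the threshold was not stable: leaving out 1 mouse at a time gave 0 to 26. Without the ileum and colon libraries of mouse 12 it was 0, and without the duodenum library of mouse 27 it was 14. Whether these properties account for the shared variation of the members was not tested.

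Genes outside the 10 were ranked by likeness to them, as the mean r with the members over the deviations of all 48 libraries from their group means. The leading genes were Dusp1 (mean r = 0.70), a dual-specificity phosphatase, Ppp1r15a (0.672), a stress-induced phosphatase subunit, Zfp36 (0.652), which promotes decay of unstable mRNAs, Klf2 (0.646) and Btg2 (0.606). Rasd1 (0.567), Rhob (0.565), Ccnl1 (0.560), Cep135 (0.539) and Pde4dip (0.533) followed. The median over all genes was -0.01. With Fos alone, Zfp36 had r = 0.903, Dusp1 0.858, Ppp1r15a 0.764, Atf3 0.751 and Pde4dip 0.717. The first 5 genes held ranks 1 to 5 without mouse 18 as well. Libraries of 1 mouse share the animal, so the 48 points are not independent and these values are a description.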

How the data were processed

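Per the labels, total RNA of the sorted cells was made into stranded SMARTer pico libraries and sequenced as single-end reads. The authors aligned the reads with STAR 2.5.1 to GRCm38 and deposited raw read counts per Ensembl gene in 1 table. These deposited counts were used as they stand, and no column was left unassigned (0). Gene symbols were found for 53360 of 53465 identifiers.

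Counts were fitted with edgeR 4.0.16 (R 4.3.3): TMM normalization, filterByExpr, 1 mean for each of the 9 groups of surgery and region, the robust quasi-likelihood test, and p-values adjusted over 15126 genes by Benjamini-Hochberg at 0.05. Levels are CPM after TMM. Correlations used log2 CPM with a prior count of 2. Replicates within a region are separate mice. Contrasts over several regions take libraries of 1 mouse as separate samples, so their p-values mix the spread between mice with that between libraries of a mouse. DESeq2 1.42.0 (which the authors used), limma 3.58.1 with the mouse as a block, summed counts per mouse, other filters and size factors, the library index and omitted libraries served as alternatives. The code was tested on simulated data.

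The mouse number in the labels pairs libraries of the same animal. Deviations from group means correlated with a median r of 0.0983 over 46 pairs of libraries of 1 mouse (from -0.08 to 0.343, with 22 pairs over 0.1), and of -0.0025 over libraries of different mice.

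Members and gene lists were chosen with earlier results of these data known. All members are named in region contrasts, and in surgery contrasts those with an unadjusted p under 0.05, or else the one of lowest p. Up to 3 other immediate early genes, and up to 2 genes of each other list, are named per direction by lowest p, and 10 genes by likeness to the members and 5 by likeness to Fos. Marker lists covered enteroendocrine, enterocyte, colonocyte, goblet, Paneth, tuft, crypt and cycling, immune, stromal and acinar genes. Proteins were not used here, and 1 gene that the naming rule selects is not reported here.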

Additional observations from a re-analysis of the deposited data

Results flagged for a closer look

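In each group of 5 or 6 libraries, the highest and the lowest value of each member and of 1 depth measure were compared with the nearest of the others by Dixon's ratio. Chance flags about 1 in 20 groups of normally distributed values. The ratios were taken on values that were not log transformed, so that rate may not hold here. Among 99 groups searched 12 values were found, each the highest of its group. Of these, 7 were the ileum library of VSG mouse 18: Fos at 705.9 CPM (next highest VSG ileum library 313.4), Jun at 965.0 (next 374.0), Junb at 405.3 (next 157.2), Egr1 at 621.2 (next 190.7), Egr3 at 27.05 (next 6.944), Arc at 125.0 (next 18.25) and Ier2 at 258.8 (next 94.87). They come from 1 library and are not 7 separate events.

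Fosb stood at 97.84 CPM in the S_al ileum library of mouse 19, with 42.67 in the next. Egr3 stood at 5.802 CPM in the S_al duodenum library of mouse 32, with 2.228 in the next. Nr4a1 stood at 47.0 CPM in the S_al colon library of mouse 13, with 15.32 in the next. Total counts were high in the S_al duodenum library of mouse 13 (17182463) and the S_wm ileum library of mouse 31 (7421731).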

How the results depend on the processing

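Members called: under the library index as a covariate 1 in colon against duodenum, 1 in colon against ileum and 0 in ileum against duodenum. In colon against ileum 1 was called with DESeq2 size factors, with no filter, with the compared libraries alone and without the duodenum library of mouse 27, and 1 to 2 without each mouse in turn. The cause was not tested. With the mouse as a fixed replicate block 5 were called in ileum against duodenum, and the pairing added Fosb (-0.46) and Jun (-0.27). For VSG against S_wm averaged over regions, DESeq2 called 2 (Arc and Ier2), and 0 were called with no filter, in limma voom with a random mouse block, and after summing the counts of each mouse. At an unadjusted p under 0.05 for VSG against S_al, 5 members were left with no filter, 5 with the index, 2 with the random block and 1 with summed counts, and 2 to 10 without each mouse in turn. For VSG against S_wm 4 to 9 were left without each mouse in turn. Correlations with library measures passed 0 times when mouse 12 lost its ileum and colon libraries and 14 times when mouse 27 lost its duodenum library, and 0 to 26 without each mouse. Correlations between regions passed 7 to 16 times.

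Directions turned for values past no threshold, apart from Egr1 under the index. With the index, colon against duodenum became 1.06 for Fosb, 0.000254 for Jun, 0.0932 for Egr1, 0.718 for Egr3, 0.325 for Arc and 0.242 for Ier2. Colon against ileum became 0.0616 for Jun, 0.298 for Egr3 and 0.152 for Ier2, and ileum against duodenum 0.575 for Fosb and 0.0905 for Ier2. With the random block, Egr3 in ileum against duodenum became -0.0419. Leaving out 1 mouse gave 0.0116 for Fos in colon against duodenum (mouse 27). In colon against ileum it gave, for Egr1, -0.0291 (mouse 11), -0.00544 (mouse 13) and -0.0391 (mouse 31), within a range up to 0.2003. For Nr4a1 it gave 0.00356 (mouse 11) and 0.00569 (mouse 29), within a range from -0.3584. Without mouse 18, Jun was at 0.0117 and Ier2 at 0.0828, within ranges from -0.1461 and -0.1496. The cause was not tested. Depth limited Egr3 and Arc most, with 0 to 342 and 3 to 1581 counts per library.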
